A study of Mus musculus with 5 samples.

Results

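Probe sets that were bright in basal cells of the mouse trachea and dim in duct cells of its submucosal glands were selected from an Affymetrix mouse 3' expression array. A probe set is a group of short probes that together report 1 transcript region as 1 intensity, in arbitrary units. The selection took the probe sets that carry 1 annotated gene symbol, measured 300 or more on both basal arrays and measured below 100 on all 3 duct arrays. Of 34945 probe sets with 1 symbol, out of 45037 that are not controls, 14 met these limits, 0.0401% of the probe sets with 1 symbol, and they belong to 14 of the 18193 genes so represented. Since the limits were set on the same arrays, the basal and duct values of these 14 probe sets are given as a description, with no test.

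All cells came from C57BL/6 mice, described as male and female animals aged 8 to 12 weeks, and each sample was a separate pool of 10 to 15 mice. The basal group held 2 samples of surface epithelium from the lower part of the trachea, released by dispase, an enzyme, and gated on antigens at the cell surface, ITGA6 among them. In the duct group were 3 samples from the upper part, where the surface epithelium had been stripped with pronase and the remaining tissue was sorted without ITGA6. Cell type, enzyme, tracheal section and sort gate therefore changed together and cannot be told apart. In such bulk samples fewer cells of a type and less RNA per cell cannot be told apart either.

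Basal cells are the stem cells of the tracheal surface, which give rise to secretory and ciliated cells, while the ducts connect the submucosal glands to that surface and hold cells with basal keratins of their own. Krt5, the defining keratin of basal cells, measured 12334 and 11617 in basal samples against 16831, 17750 and 19821 in duct samples, so it was bright in both groups. A list of 12 basal cell markers, Krt5 among them, was mixed, with 7 higher and 5 lower in duct samples by sign. Krt14 measured 1327 and 1533 in basal against 18615, 18421 and 22413 in duct samples. Ngfr measured 1791 and 1820 against 406, 754 and 466. The deposited values had been scaled to a common trimmed mean, which leaves the dim end of each array free to differ. On duct replicate 1 the median probe set was at 92.3 and 51.5% of probe sets lay below 100. On the other 4 arrays the medians ran from 146.5 to 152.8 and the shares below 100 from 39.2% to 40.9%.

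The 14 genes fall into classes by what their products are known to do, assigned from textbook knowledge after the members were known. Ifi47, an interferon-inducible GTPase, Plscr1, an interferon-inducible phospholipid scramblase, Sike1, a suppressor of the kinase IKK-epsilon, and Wdfy1, an endosomal adaptor of Toll-like receptor signalling, belong to innate antiviral defence. Hyls1, a centriolar protein, Ttc30b, a subunit of the intraflagellar transport machinery, and Saxo2, named as a stabilizer of axonemal microtubules, belong to cilia. Slitrk6, a leucine-rich repeat membrane protein that shapes neurites, Nexmif, a neurite extension factor, Gprc5b, an orphan G protein-coupled receptor, and Tmem25, a transmembrane protein of the immunoglobulin superfamily, are known mostly from neural tissue. Fmo2, the flavin monooxygenase of the lung, and Mt1, a metallothionein that binds zinc and copper, handle xenobiotics and metals, and Zfp599 is a zinc finger gene. None of the 14 was among the genes of 16 marker and pathway lists. Those lists were chosen with earlier results of these data known, so nothing is read from this absence.

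Promoter windows of 250 bases before to 50 after the transcription start were matched by symbol for 9 of the 14 genes in RefSeq's table, with 2 windows for Fmo2, and they are shown for the interferon-inducible members and for the metal-responsive one because well-known response elements exist for these. Interferon acts through the interferon-stimulated response element, searched as a pair of GAAA runs with any 2 bases between them, and the gamma-activated site, searched as TTCNNNGAA, and metals act through the metal response element, searched as TGCACNC or TGCGCNC, each on both strands. Capitals mark matches to the interferon elements in Plscr1 and Ifi47 and to the metal element in Mt1, and no marked matches overlap.
Plscr1 (GRCm38.p6, chr9:92249944-92250243, plus strand): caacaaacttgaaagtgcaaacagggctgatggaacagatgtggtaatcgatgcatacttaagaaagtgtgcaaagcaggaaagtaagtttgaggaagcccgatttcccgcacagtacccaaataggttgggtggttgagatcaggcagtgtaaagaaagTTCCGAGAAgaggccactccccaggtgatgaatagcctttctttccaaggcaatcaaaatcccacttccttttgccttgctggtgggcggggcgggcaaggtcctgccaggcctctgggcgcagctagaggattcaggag
Ifi47 (GRCm38.p6, chr11:49076337-49076636, plus strand): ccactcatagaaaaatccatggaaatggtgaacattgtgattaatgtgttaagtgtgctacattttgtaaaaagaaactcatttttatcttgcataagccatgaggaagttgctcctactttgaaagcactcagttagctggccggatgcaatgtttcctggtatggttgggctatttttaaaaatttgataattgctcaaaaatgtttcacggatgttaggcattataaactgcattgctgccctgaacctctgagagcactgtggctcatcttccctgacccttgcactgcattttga
Mt1 (GRCm38.p6, chr8:94178839-94179138, plus strand): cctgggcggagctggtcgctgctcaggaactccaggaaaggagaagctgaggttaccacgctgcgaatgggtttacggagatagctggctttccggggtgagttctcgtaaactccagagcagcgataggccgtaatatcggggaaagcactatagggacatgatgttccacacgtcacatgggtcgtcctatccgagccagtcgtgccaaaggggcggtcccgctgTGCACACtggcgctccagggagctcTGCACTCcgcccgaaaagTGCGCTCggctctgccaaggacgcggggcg
The Plscr1 window held 1 gamma-activated site, at position -90 from the start, the Ifi47 window held neither interferon element, and the Mt1 window held 3 metal response elements. Among the 10 member windows a gamma-activated site also stood in 1 of the 2 of Fmo2, and the metal element also in those of Plscr1, with 2, and Tmem25, with 1, while the interferon-stimulated response element was in 0. Over 32851 promoter windows of the same length, 3.44% held the response element, 8.30% the gamma-activated site and 25.7% the metal element. A match to these letters is a description and does not show that a factor binds there.

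Few probe sets bright in basal cells came near background in duct cells. Of 12329 probe sets with 1 symbol that reached 300 on both basal arrays, 12069 were at or above 100 on every duct array, 214 were below 100 on 1 duct array, 32 on 2 and 14 on all 3. The reverse pattern, 300 or more on all 3 duct arrays and below 100 on both basal arrays, was met by 41 probe sets. With each array centred on its median the counts were 5 and 46, and with quantile normalization 4 and 50. A mean above 1000 in the bright group was reached by 0 of the 14 and by 15 of the 41, although probe sets differ in brightness for the same amount of RNA. One further probe set met the intensity limits but has no listed gene, at 434 and 424 in basal samples against 76.9, 39.3 and 15.1 in duct samples.

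**Figure D1:**
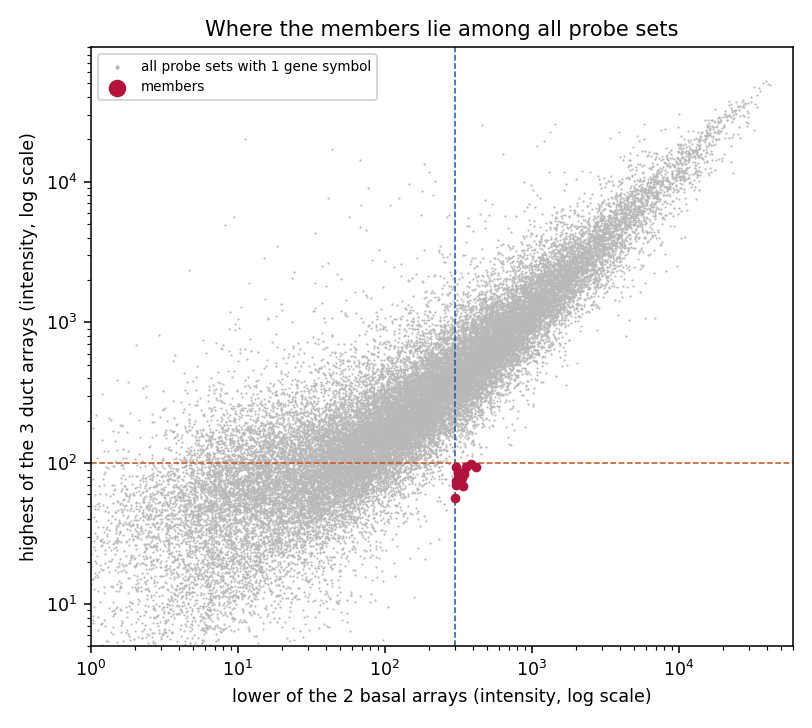
Each grey point is 1 of 34945 probe sets with 1 gene symbol, placed by the lower of its 2 basal arrays and the highest of its 3 duct arrays, both as intensity in arbitrary units on log scales; dashed lines mark 300 and 100. The 14 members (red) lie in the corner close to both limits, and a small part of the grey points falls outside the axes.

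The members crowded against the limits that defined them. Their basal means ran from 315 to 532 with a median of 369, and their duct means from 40.4 to 78.8 with a median of 66.9. The 3 nearest to a limit were Wdfy1, whose lower basal array was at 302, Ttc30b, at 304, and Fmo2, at 305. The 3 that missed most narrowly were Myh11, a smooth muscle myosin gene, with 289 on basal replicate 2, Junos, with 275 on basal replicate 2, and Efcab1, with 109.8 on duct replicate 2. With the basal minimum at 200 there were 52 such probe sets and with the duct limit at 150 there were 44. With the minimum at 500 or the duct limit at 50 there were 0.

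**Figure D2:**
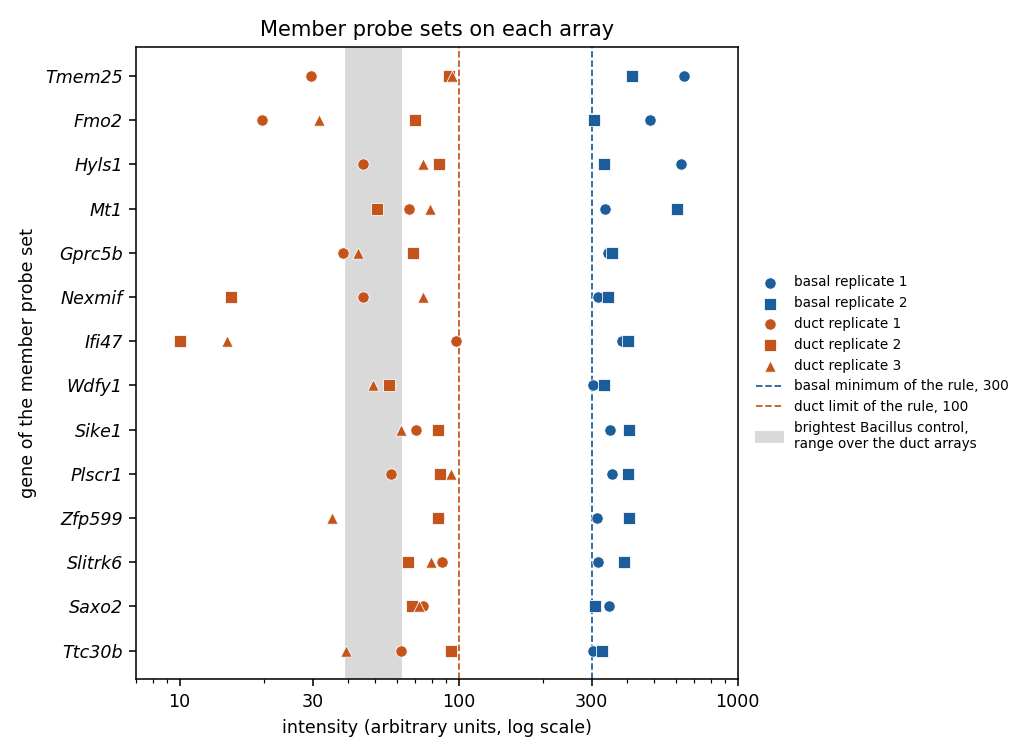
Intensity of each of the 14 member probe sets on the 2 basal arrays (blue) and 3 duct arrays (orange), in arbitrary units on a log axis, with the limits of 300 and 100 dashed and the range of the brightest Bacillus control over the duct arrays in grey. Ifi47 is spread most widely among the duct arrays, from 10.0 to 98.0.

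The members' duct values lay around the background level. As the values carry no detection calls, the 27 probe sets for Bacillus transcripts served as background, and the brightest of them measured 39.5, 55.9 and 61.9 on duct replicates 1, 2 and 3. Of the 42 duct values of the members, 12 were at or below the brightest control of their array. Above it on duct replicates 1, 2 and 3 were 11, 11 and 8 of the 14 members and 67.2%, 74.6% and 72.5% of all probe sets. As the limits hold every member below 100 on the duct arrays, nothing is read from this comparison. All 28 basal values of the members were above the brightest control of their array. None of the 14 members lay at or below the control on all 3 duct arrays, so no fold is a lower bound set by background alone. Ifi47, Fmo2 and Gprc5b were above it on 1 duct array, 6 members on 2, and Hyls1, Sike1, Plscr1, Slitrk6 and Saxo2 on all 3.

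Background still limited how far the folds could be read. As measured, the ratio of basal to duct geometric means ran from 4.56 to 16.2 with a median of 6.39. With each duct value raised to its array's brightest control where it was lower, the range narrowed to 4.43 to 7.43 with a median of 5.55. The order changed with it. Ifi47, first as measured at 16.2-fold, was 5.66-fold higher in basal cells against the control level, and Fmo2 went from 10.9-fold to 6.92-fold and Nexmif from 8.85-fold to 5.74-fold. Which member stood first also changed with the arrays: Tmem25 had 7.43-fold on all arrays, with duct replicate 1 itself at the control level, but Mt1 was first without basal replicate 1, at 9.09-fold, and Hyls1 without basal replicate 2, at 9.53-fold. The lowest basal array exceeded the highest duct array by 3.25-fold in Ttc30b up to 5.30-fold in Wdfy1, where the limits themselves require more than 3-fold. Folds of the members from here on are those against the control level unless stated otherwise. Ratios of further probe sets and of gene means are as measured.

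**Figure D3:**
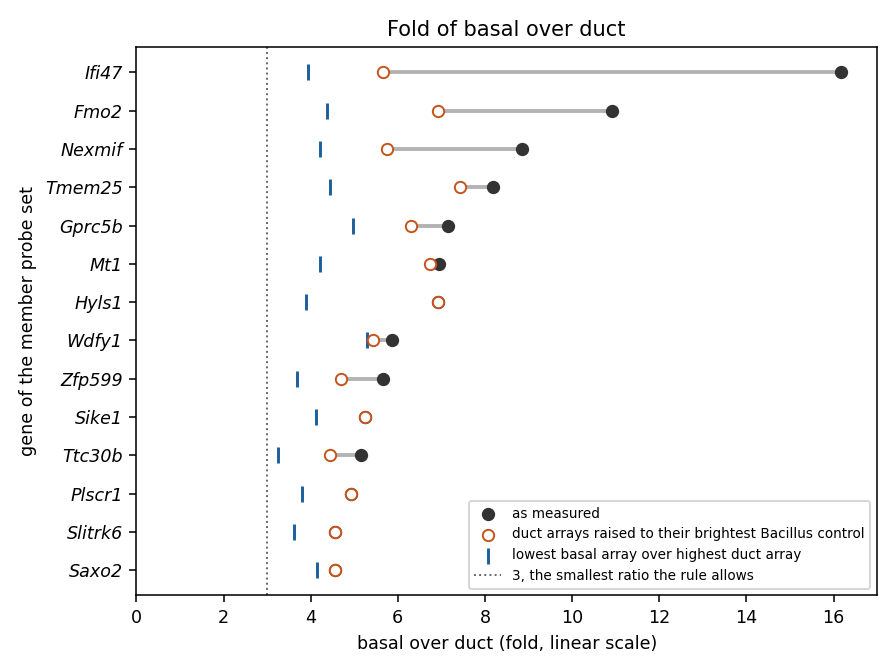
Ratio of basal to duct geometric mean for each member on a linear axis, as measured (black) and with duct values raised to the brightest Bacillus control of their array (open orange), beside the ratio of the lowest basal to the highest duct array (blue bar). Measured ratios reach 16.2 for Ifi47, while against the control level all lie between 4.43 and 7.43.

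The antiviral members had basal arrays close to each other. Ifi47, whose GTPase acts on vacuoles of intracellular pathogens, measured 386 and 403 in basal samples against 98.0, 10.0 and 14.8 in duct samples. Duct replicate 1 was thus just under the limit and the other duct arrays were below their brightest controls, and the log2 difference of duct minus basal carried the widest standard error of the 14, at -3.19 (SE 0.67) on the log2(intensity + 16) scale. Plscr1 measured 356 and 404 in basal cells and 57.0, 85.7 and 93.8 in duct cells, 4.92-fold higher in basal cells. Sike1 measured 347 and 409 against 70.6, 84.3 and 62.3, 5.25-fold. For both genes every duct array was above its control, so the ratio is as measured. Wdfy1 measured 302 and 333 against 57.0, 56.2 and 49.5, 5.44-fold, and its duct arrays lay close together, from 49.5 to 57.0.

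A list of 36 other interferon-stimulated genes held 2 that were lower in duct cells by the test. Of the 36 genes, 27 were tested on the most intense probe set of each gene, and limma called Xaf1 and Rtp4 lower and 0 genes higher, where it called 0.136% of all 12536 genes lower and 0.838% higher. At a negative fold change stood 25 of the 27, and the median log2 fold change was -0.94, against -0.12 for all genes. The share of negative signs over all genes was not counted. Among the 25, Irf7 stood at -0.02 and Stat2 at -0.10. The 2 at a positive fold change were Cxcl10, at 1.63 (SE 0.37), and Herc6, at 0.47 (SE 0.36). Cxcl10 measured 363 and 283 in basal against 665, 1342 and 1205 in duct samples. Xaf1, an inhibitor of apoptosis inhibitors, measured 869 and 724 in basal against 128, 135 and 102 in duct samples (log2 difference -2.56, SE 0.25, limma adjusted p = 0.020). Rtp4, a chaperone of G protein-coupled receptors, measured 1089 and 947 against 136.0, 262 and 144 (-2.45, SE 0.34, limma adjusted p = 0.049). The groups of both genes were separate, as were those of 19.2% of all 18193 genes in the same direction. Neither call held with any 1 of the 5 arrays left out, where the limma adjusted p ran from 0.065 to 0.17 for Xaf1 and from 0.066 to 0.27 for Rtp4, and the direction was kept in each fit. The summed intensity of the 33 genes on the array was 24258 and 22229 in basal and 12597 to 13021 in duct samples. Leukocyte markers had a sum of 7287 and 19343 in basal and 16052 to 21982 in duct samples over the 20 of 21 genes on the array. The groups overlapped, limma called 0 of 11 tested, 1 of the 20 was at or below the controls on all arrays, and their part in these values was not tested.

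Of the cilium members, Hyls1 had basal arrays far apart and Ttc30b and Saxo2 had them close together. Hyls1, needed for centrioles to form cilia, measured 629 and 332 in basal samples against 45.3, 85.3 and 74.4 in duct samples, 6.92-fold higher in basal cells, and its basal arrays lay 1.89-fold apart, the widest gap of the 14. Ttc30b measured 304 and 326 against 62.0, 93.5 and 39.3, 4.43-fold. Saxo2 measured 345 and 308 against 74.3, 68.1 and 71.9, 4.56-fold, with the duct arrays within 1.09-fold of each other. The basal and duct arrays of each gene were separate by the choice of members.

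Markers of ciliated cells were mixed, and none passed the test. Of 14 listed genes 13 were on the array, 8 were tested, and limma called 0 in either direction, with a median log2 fold change of -0.71 and a negative sign in 6. The sum of the 13 was 4876 and 5968 in basal and 4268 to 5158 in duct samples, and 0 of them lay at or below the controls on all arrays. Tppp3 was the largest single part of each sum, at 2077 and 2200 in basal against 2977, 3045 and 3202 in duct samples. The sums therefore mostly follow this gene in duct samples and say little about the others. Foxj1, the master regulator of motile cilia, measured 115 and 188 in basal and 23.0, 18.8 and 198 in duct samples, so the groups overlapped. Of the 13 genes, Rfx3, Ccdc39, Ccdc40 and Spag6l were lower in duct samples without overlap, Tppp3 was higher without overlap and 8 overlapped, where 19.2% of all 18193 genes were lower and 13.7% higher without overlap. Rfx3, a transcription factor of ciliogenesis, measured 1079 and 1452 in basal against 296, 424 and 359 in duct samples. The part of ciliated cells in the values of the cilium members was not tested.

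The membrane and neuronal members included Tmem25, at 7.43-fold. It measured 645 and 420 in basal samples against 29.6, 92.2 and 94.3 in duct samples, of which duct replicate 1 was under its control. Of the 14 members 2, Tmem25 and Saxo2, were read from probe sets with an _x_at suffix, which marks possible cross-hybridisation to other transcripts. Gprc5b measured 342 and 355 against 38.4, 68.9 and 43.5, 6.31-fold, with basal arrays only 1.04-fold apart. Nexmif, an X-linked gene, measured 316 and 344 against 45.3, 15.3 and 74.8, 5.74-fold. Slitrk6 measured 315 and 393 against 87.0, 66.0 and 79.8, 4.57-fold, with every duct array above its control. Of the neural and glial list, 10 genes were on the array, 3 were tested, and limma called 0; their sum was 1802 and 1918 in basal and 1445 to 1885 in duct samples.

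The remaining members were an oxidising enzyme, a metal-binding protein and a zinc finger protein. Fmo2 measured 484 and 305 in basal samples against 19.8, 69.9 and 31.5 in duct samples, 6.92-fold. Mt1 measured 333 and 604 against 66.6, 51.2 and 79.0, 6.75-fold, with basal replicate 2 the higher. Zfp599 measured 314 and 407 against 85.1, 84.2 and 35.3, 4.69-fold, where duct replicate 3 alone was under its control. Over all 14 members 10 were higher on basal replicate 2 and 4 on basal replicate 1, and duct replicates 1, 2 and 3 were the lowest duct array of 5, 5 and 4 members, so no single duct array set the low side of the whole group.

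Further probe sets of the same genes went against the reading that the genes are near-absent in duct cells. For 10 of the 14 genes the array carries 25 further probe sets with the same single symbol. Of these 25, 13 measured 100 or more on all 3 duct arrays, 6 were below 100 on all 3 and the rest were mixed. Fmo2, Gprc5b, Mt1, Nexmif, Plscr1, Sike1 and Wdfy1, 7 of the 10 genes, had at least 1 further probe set at or above 100 on every duct array, and for Fmo2, Mt1 and Plscr1 it was at or above 300 on every duct array. The pattern therefore holds for 14 probe sets, and a name that calls these 14 genes near-absent in duct cells says more than the array shows.

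Further probe sets of Plscr1, Fmo2 and Mt1 were bright in both groups. The 2 further Plscr1 probe sets measured 3384 and 3288 in basal against 2963, 3117 and 1884 in duct samples, and 3194 and 3166 against 2788, 3035 and 2285. Their basal to duct ratios were 1.29 and 1.18, where the member probe set had 4.92. The 4 further Fmo2 probe sets were lower in duct samples without overlap, by ratios of 1.77 to 2.22, and the brightest of them measured 6599 and 7064 in basal against 3302, 4579 and 3208 in duct samples. For Fmo2 the further probe sets thus differed from the member in size and not in direction. The further Mt1 probe set went the opposite way, at 4733 and 4394 in basal against 6335, 7481 and 7849 in duct samples, a ratio of 0.634. Mt2, the metallothionein gene next to Mt1, was also higher in duct samples, at 13416, 11828 and 15475 against 5223 and 5317. Of the 25 further probe sets, 5 carry an _s_at or _x_at suffix, which marks possible cross-hybridisation. The further Mt1 probe set and the Plscr1 one at 3194 and 3166 are among these, so their signal may not be specific to the gene.

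The other genes were mixed. The further Gprc5b probe set measured 674 and 560 in basal and 118, 331 and 327 in duct samples, lower in duct without overlap at a ratio of 2.62. The 5 further probe sets of Sike1 had ratios from 1.08 to 2.53 and the 3 of Nexmif from 1.02 to 1.66. The brightest further one of Wdfy1 measured 285 and 722 in basal against 246, 210 and 623 in duct samples, so its groups overlapped. That of Tmem25 measured 180 and 181 in basal against 20.6, 149 and 144 in duct samples, lower in duct without overlap at a ratio of 2.37. That of Hyls1 measured 167 and 117 against 29.8, 228 and 321, so its groups overlapped, at a ratio of 1.08. Both were below 100 on duct replicate 1 and above it on the other duct arrays. Of the 3 of Saxo2, 2 were also below 100 on every duct array. One of them measured 282 and 214 in basal against 70.5, 63.7 and 26.6 in duct samples, and the other was at or below the controls on all arrays. The remaining one measured 41.4 and 38.5 in basal against 104, 108 and 31.1 in duct samples, a ratio of 0.568 with overlap. Its values on both basal arrays and on duct replicate 3 were below their brightest controls, so this ratio is limited by background. Ifi47, Slitrk6, Ttc30b and Zfp599 have no other probe set with their symbol alone, so they were read from 1 probe set each. Probe sets with several symbols or no listed gene were not examined for them.

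**Figure D4:**
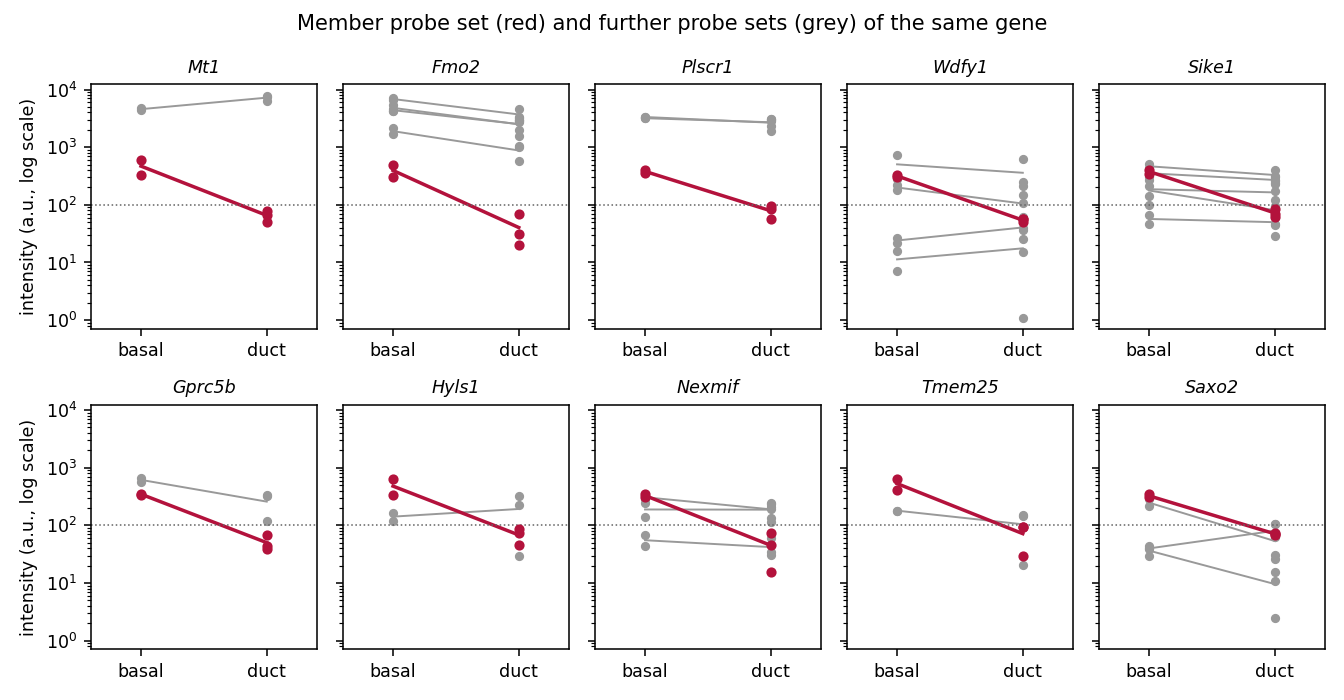
Intensity in basal and duct samples (arbitrary units, log scale) for the 10 member genes with further probe sets; points are arrays, lines join group means, the member probe set is red, further ones are grey, and the dotted line marks 100. Grey lines of Plscr1, Fmo2 and Mt1 stay far above 100 in duct samples, and that of Mt1 goes up.

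Over the 25 further probe sets, 14 were lower in duct samples without overlap, 1 was higher without overlap and 10 overlapped. In all 27022 tested probe sets 20.7% were lower and 14.9% higher without overlap; as these values come from the contrast that chose the members, nothing is read from the share. When the probe sets of a gene were averaged on the log2 scale, the limits of 300 and 100 were met by 4 genes. These were Ifi47, Slitrk6, Ttc30b and Zfp599, which have only 1 probe set with their symbol alone. When the most intense probe set stood for each gene, they were met by 7: these 4 and Hyls1, Saxo2 and Tmem25. The members' target sequences in the platform annotation were expressed sequence tags for 9 of 14, or 64.3%, against 10 of the 25 further probe sets and 47.5% of the 12329 probe sets bright in basal cells.

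A fit across the whole array called none of the members. limma on 27022 probe sets, with Benjamini-Hochberg adjustment, called 63, or 0.233%, of which 5 were lower in duct cells, 0.0185%, and 58 higher, and it called 0 of the 14 members, while all 14 had an unadjusted p under 0.05, as did 8.68% of all probe sets in that direction. Since the members were chosen on this contrast, nothing is read from either count. The calls depended on the fit: limma called 10 members with arrays centred on their medians, where it called 0.241% of all probe sets lower, and 10 with an intensity trend and robust moderation, where it called 1.54% lower. It called 2 of the member genes with the most intense probe set per gene, against 0.136% of all genes lower. With any 1 of the 5 arrays left out, or with the replicate block, it called 0 probe sets lower. The fitted log2 differences of duct minus basal ran from -1.97 in Saxo2 (SE 0.25) to -3.19 in Ifi47, with a median of -2.37 against -0.13 for all probe sets tested.

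Zfp599 has neighbours of the same kind on its chromosome. In the order of protein-coding genes of GRCm38.p6 it lies between Zfp809, whose product represses integrated retroviruses, and Zfp810, also a zinc finger gene. Zfp809 measured 6644 and 5753 in basal and 2566, 2157 and 2340 in duct samples. Zfp810 measured 468 and 255 in basal and 28.3, 34.7 and 51.1 in duct samples, and its lower basal array kept it out of the members. Both neighbours were lower in duct samples without overlap. Of 39 genes on the array within 2 places of a member, 5 were lower without overlap, 6 were higher without overlap, 28 overlapped and 0 met the limits. Of all 18193 genes, 19.2% were lower and 13.7% higher without overlap, so the neighbours' counts were not above the background for lower genes and were near it for higher ones. Zfp809 and Zfp810 were picked out after their values were seen. Of a list of 20 zinc finger genes of the KRAB type, which repress transcription, 11 were tested and limma called 1 lower, Zfp810 itself, and 0 higher, against 0.136% lower and 0.838% higher of all genes. As the list holds Zfp810 and was chosen with earlier results of these data known, nothing is read from that call. The list's median log2 fold change, with Zfp810 included, was -0.86, against -0.12 for all genes. The call of Zfp810 was lost without any 1 of the duct arrays (limma adjusted p from 0.098 to 0.15), and without either basal array the gene did not pass the filter.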

How the data were processed

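RNA from 2 basal and 3 duct samples was hybridised to 1 array each, per the labels. The authors deposited a linear intensity for every probe set on each array. With 2% of the values trimmed from either end, the mean is 500.003 on all 5 arrays, so the values had been scaled to it. How probes were summarised and background corrected is not given in the sources used here, and detection calls were not used. Columns of no sample numbered 0, and at most 1 probe set had the same value on any pair of arrays.

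Probe sets were named from the platform annotation, and all 14 member symbols matched the mouse reference by Entrez identifier. The 64 control probe sets were left out. Folds are ratios of geometric means. The fit was made with limma 3.58.1 (lmFit, then eBayes; R 4.3.3), 2-sided, on log2(intensity + 16) of all 5 arrays, after leaving out the lowest 40% of probe sets by mean log2 value, with Benjamini-Hochberg adjustment at 0.05; fold changes on this scale understate the change of dim probe sets. The script was tested on simulated data. Probe sets rather than genes were the unit because the members are probe sets; gene lists were read from the most intense probe set per gene.

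The members and lists were chosen with earlier results of these data known. Named were all 14 members, the 3 probe sets nearest inside and the 3 nearest outside the limits, and the genes singled out in the text after their values were seen. Figures were drawn with matplotlib 3.10.9. Each sample is its own pool, so equal replicate numbers do not pair arrays. Alternatives were other limits, scalings, backgrounds, pseudocounts, filters and units, the replicate block and each array left out; for Xaf1, Rtp4 and Zfp810 the last were added after seeing the data.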

Additional observations from a re-analysis of the deposited data

How the results depend on the processing

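The number of member probe sets was 4 with quantile normalization, 5 with median centring, 52 and 0 with a basal minimum of 200 and 500, 44 and 0 with a duct limit of 150 and 50, 7 with the most intense probe set per gene and 4 with the mean of probe sets. With possibly cross-hybridising probe sets left out, which removed Tmem25 and Saxo2, it was 12. The 4 and 5 under other scalings were members of the original 14; Gprc5b, Hyls1, Plscr1 and Tmem25 were among both. Leaving out an array removes a condition of the rule, and the count then ran from 21 to 80: 42 and 80 without basal replicates 1 and 2, and 23, 30 and 21 without duct replicates 1, 2 and 3. The median fold, whose direction the rule fixes, lay between 3.67 with 100 as background and 6.39 with no floor. The 63 calls of probe sets became 101 with quantile normalization, 427 with median centring, 182 with a pseudocount of 64, 27 with no filter, 341 with the lowest 60% left out (which removed all members), 122 and 225 with the most intense and the mean probe set, 1215 with trend and robust fit, and 0 to 24 without an array. Members called lower became 10 with median centring, where 0.241% of all probe sets were called lower. They became 4 with a pseudocount of 64, against 0.111% of all probe sets. With the most intense and the mean probe set they became 2 and 3, against 0.136% and 0.569% of all genes. With trend and robust fit they became 10, against 1.54% of all probe sets. With the replicate block, 0 probe sets and 0 members were called (limma gave 1053 higher and 1607 lower with unadjusted p below 0.05), on 1 residual degree of freedom; same-numbered arrays had correlations of deviations of -0.09 and -0.05. At the gene level Xaf1, Rtp4 and Zfp810 were called under both other scalings and not with the block, at limma adjusted p = 0.28, 0.30 and 0.29. With the mean of probe sets, which includes the member itself, the folds of Mt1, Wdfy1, Sike1 and Plscr1 as measured were 2.10, 1.67, 1.77 and 1.96. The cause of these shifts was not tested. With 5 arrays and members near background, precision is limited.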
